A study of Mus musculus with 2 samples.

Results

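The ligands and receptors of the tumor necrosis factor (TNF) and lymphotoxin pathway described here are 10 genes chosen by symbol from the 32285 genes of the deposited count files. The ligands were Tnf, Lta, Ltb, Tnfsf10 and Tnfsf13b, and the receptors were Tnfrsf1a, Tnfrsf1b, Ltbr, Cd40 and Fas. They were measured by single-cell RNA sequencing of palatal gingiva, mainly outside the myeloid cells. The gingiva came from female C57BL/6 mice (written C57Bl6/J where the treatment is described) aged 8 to 12 weeks, with 4 mice for each of 2 treatments. One treatment was CpG ODN, a short synthetic DNA that TLR9 binds, and the other was *P. gingivalis* LPS, a bacterial lipopolysaccharide that was used as a TLR2/4 ligand. For both, 3 µl at 1 µg/ml was placed on the palate for 1 h under an oral appliance, and the gingiva was harvested 4 days later. The cells of the 4 mice of a treatment were combined before sequencing, so each treatment gave 1 library and no spread between mice can be had. No library of untreated gingiva was analysed here, the groups are called CpG ODN and LPS below, and both had the appliance, the collagenase II and trypsin digestion and the combined mice in common.

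TNF is a cytokine that is made as a membrane protein and shed by the protease ADAM17, and it signals through TNFR1 (Tnfrsf1a), found on most cells, and TNFR2 (Tnfrsf1b), found mainly on leukocytes and endothelium. Lymphotoxin alpha (Lta) pairs with lymphotoxin beta (Ltb) on the surface of lymphocytes, and the pair binds the lymphotoxin beta receptor (Ltbr) of stromal, epithelial and myeloid cells, where it drives the non-canonical NF-κB pathway and the upkeep of lymphoid structures. TRAIL (Tnfsf10) and Fas belong to the death ligand and death receptor branch of the family, BAFF (Tnfsf13b) is a survival factor of B cells, and CD40 is the receptor through which T cells help B cells.

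Tnf, Lta and Ltb lie next to each other on mouse chromosome 17 in GRCm38. Ltb (ENSMUSG00000024399) occupies chr17:35194439-35196320 on the plus strand, Tnf (ENSMUSG00000024401) chr17:35199381-35202007 on the minus strand, and Lta (ENSMUSG00000024402) chr17:35203165-35205351 on the minus strand. The gaps between the genes are 3060 bases from Ltb to Tnf and 1157 bases from Tnf to Lta. Ltbr (chr6:125306571-125313885, minus strand) and Tnfrsf1a (chr6:125349362-125362484, plus strand) lie on the same chromosome, 35476 bases apart with their starts toward each other and Scnn1a between them. Tnfsf10 lies at chr3:27317028-27342427 (plus), Tnfsf13b at chr8:10006467-10039072 (plus), Tnfrsf1b at chr4:145213463-145246870 (minus), Cd40 at chr2:165055627-165072948 (plus) and Fas at chr19:34290666-34327772 (plus).

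The bases before the start of the neighbouring trio are shown because these genes sit within a few kilobases of each other and yet had different patterns over the cells. They are 250 bases for Tnf and Lta and, because GENCODE places the Ltb start further upstream than RefSeq, 182 bases for Ltb. They are printed 5′ to 3′ on the strand of each gene, from chr17:35194257-35194438 (plus) for Ltb, chr17:35202008-35202257 (minus) for Tnf and chr17:35205352-35205601 (minus) for Lta, in GRCm38.p6, with the sequences from RefSeq. Capitals mark a match to the NF-κB consensus in Ltb and a match to TATAAA in Tnf and Lta.
Ltb: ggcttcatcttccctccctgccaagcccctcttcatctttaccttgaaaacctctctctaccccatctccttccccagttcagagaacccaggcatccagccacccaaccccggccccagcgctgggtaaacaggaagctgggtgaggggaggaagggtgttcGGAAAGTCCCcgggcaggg
Tnf: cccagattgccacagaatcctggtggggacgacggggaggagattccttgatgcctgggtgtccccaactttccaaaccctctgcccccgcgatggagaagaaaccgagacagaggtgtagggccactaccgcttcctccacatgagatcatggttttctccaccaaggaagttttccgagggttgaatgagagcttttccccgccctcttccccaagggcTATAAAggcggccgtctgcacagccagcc
Lta: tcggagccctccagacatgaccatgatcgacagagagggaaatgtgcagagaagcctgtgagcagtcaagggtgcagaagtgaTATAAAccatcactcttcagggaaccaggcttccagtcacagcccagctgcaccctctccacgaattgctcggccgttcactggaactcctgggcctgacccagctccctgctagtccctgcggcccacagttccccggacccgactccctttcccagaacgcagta

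The NF-κB consensus, a site for the transcription factors that the pathway activates, was searched on both strands in the RefSeq windows of 250 bases before to 50 bases after a start. It was found in 1 of the 10 windows of 9 member genes, that of Ltb, on the opposite strand beginning 87 bases before the RefSeq start. Of all 32851 windows of this length, 4.51% held it. TATAAA was present on the gene strand 29 bases before the Tnf start and 167 bases before the Lta start, and 13.6% of all windows held it on either strand. TTCNNNGAA, the interferon-type GAS element, matched 2 times in the Lta window, 1 time in that of Ltb and not in that of Tnf, against 8.30% of all windows with a match. These are matches of letters and not measured binding sites.

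Of 6219 barcodes (72173148 UMIs) after CpG ODN and 2016 (38656738 UMIs) after LPS, 4888 and 1277 had at least 800 detected genes and were kept, with a median of 11077.5 and 22680 UMIs. The libraries shared 5 barcodes, 1 of them among the kept cells. Cells were clustered without 94 genes of the lists used here, the members among them, and clusters were named by marker genes, so each class name below stands for that type "like". This gave 3657 and 959 keratinocyte-like cells, 97 and 63 gland or simple epithelial cells, 283 and 69 B cells, 85 and 27 T cells, 237 and 54 fibroblasts, 49 and 24 endothelial cells, 83 and 22 mural cells and 34 and 13 myeloid cells in the CpG ODN and LPS libraries. A further 238 and 4 cells, led by Jchain, Ighg2b, Rgs13 and Mef2b, were germinal-centre or antibody-secreting B-like and are called GC-like B cells below. The B-cell classes therefore differed in makeup between the libraries, and GC-like B cells are described after CpG ODN only. Keratinocyte RNA was also found outside the epithelium, where 39.4% and 36.4% of the non-epithelial cells had a UMI of Krt14, a basal keratin. Whether it came from free RNA or from mixed cells was not tested. Levels are UMIs summed over the cells of a class per 1000000 UMIs of those cells (CPM), and brackets give exact 95% intervals that cover counting error only, with no spread between mice or cells. A ratio was read as past the fold when it was at least 2 or at most 0.5 with at least 20 UMIs in both libraries together.

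**Figure D1:**
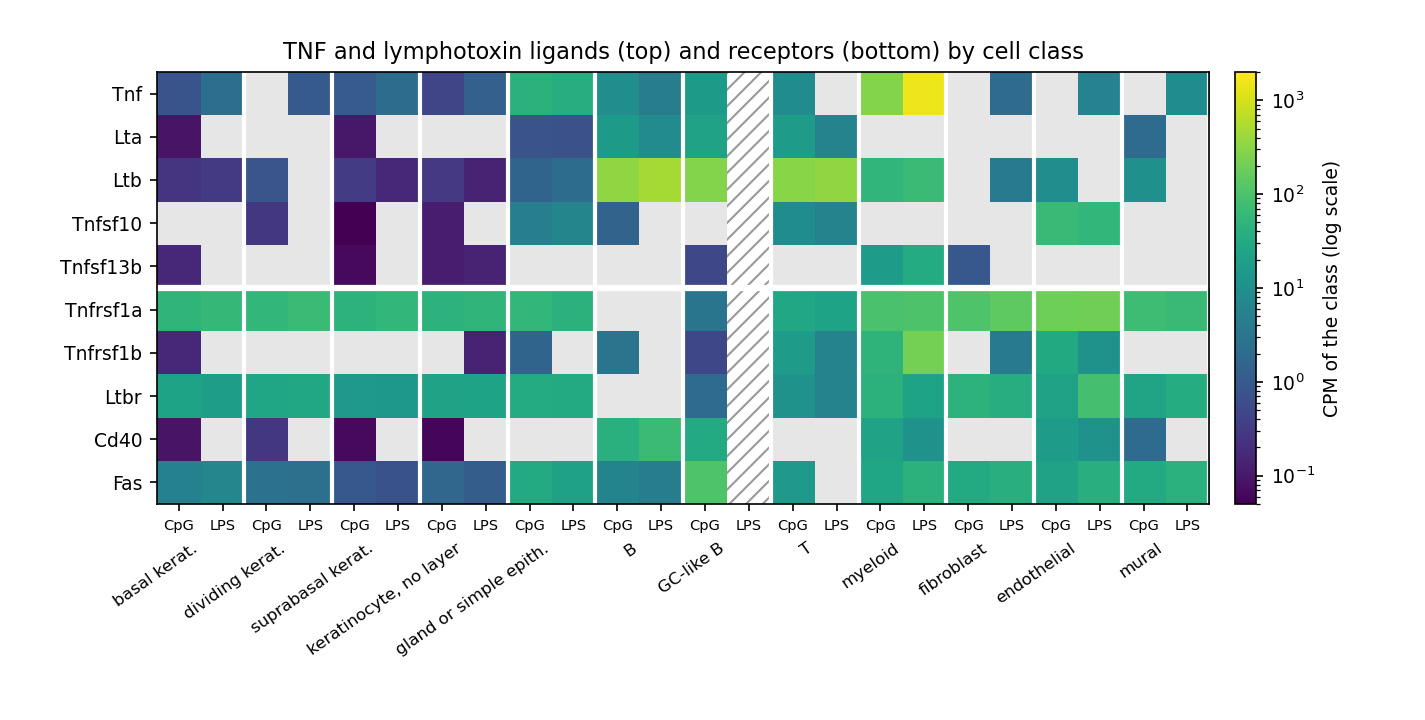
Level of each ligand (top) and receptor (bottom) in 12 cell classes (columns, each with the CpG ODN and the LPS library), as CPM on a log colour scale; grey is 0 UMIs and hatching marks the GC-like B cells of the LPS library, of which there were 4. Ltb was highest in B, GC-like B and T cells, Tnfrsf1a and Ltbr had UMIs in every class shown but B cells and the 4 GC-like B cells after LPS, and Tnfsf10 was highest in endothelial cells.

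Ltb, the membrane anchor of the lymphotoxin heterotrimer, was mainly found in lymphocytes. B cells had 229 UMIs (340 CPM, 297–386) after CpG ODN and 112 UMIs (473 CPM, 389–569) after LPS. T cells had 104 UMIs (305 CPM, 249–370) and 60 UMIs (343 CPM, 262–442). GC-like B cells had 555 UMIs (279 CPM, 257–304) after CpG ODN. Together these 3 classes held 93.3% of the 952 Ltb UMIs found after CpG ODN and 90.9% of the 198 found after LPS. The T cell level was not separated from the B cell level by counting error in either library, with ratios of 0.898 (0.706–1.14) and 0.726 (0.521–1.00), although with classes from signature genes they were 1.62 and 1.72.

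Between the libraries, Ltb in B cells was lower after CpG ODN, at 0.718 times the LPS level (0.570–0.908), and in T cells the ratio was 0.888 (0.640–1.24). Neither ratio was past the fold. Both values rested on how the classes were drawn. When B cells were chosen by 5 signature genes in place of clusters, the B cell ratio was 1.08, and with a minimum of 1200 detected genes the T cell ratio was 0.414. A UMI of Ltb was found in 138 of 283 B cells (48.8%) after CpG ODN and in 51 of 69 (73.9%) after LPS, at median depths of 2149 and 3157 UMIs per cell. Thinned to 1500 UMIs per cell, the shares were 37.0% and 48.6%, and those of T cells (61.2% and 74.1% unthinned) were 41.7% and 39.5%.

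Within the GC-like B cells, Ltb was uneven. Of the 238 cells, 64 had no UMI, 53 had 1, 40 had 2 and 81 had 3 or more, with a highest value of 16. The 2 clusters of this class differed, with 488 CPM (440–541) in the 137 cells of cluster 14 and 152 CPM (131–176) in the 101 cells of cluster 18, which was also led by histone genes. Against B cells of the same library, the class as a whole was at 0.823 times (0.704–0.964), cluster 14 alone at 1.44 times and cluster 18 alone at 0.448 times. The direction of that difference was therefore set by the cluster. The 4 GC-like B cells of the LPS library had 8 UMIs.

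Outside lymphocytes, Ltb was close to the background level in keratinocytes but not in myeloid cells. Fibroblasts, which should lack it, had 0 UMIs in 237 cells after CpG ODN, which allows up to 2.75 CPM, and 2 UMIs (4.02 CPM) in 54 cells after LPS. Keratinocytes had 21 UMIs (0.335 CPM) and 6 UMIs (0.180 CPM). Myeloid cells lay between, with 12 UMIs (53.5 CPM) and 6 UMIs (69.2 CPM).

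**Figure D2:**
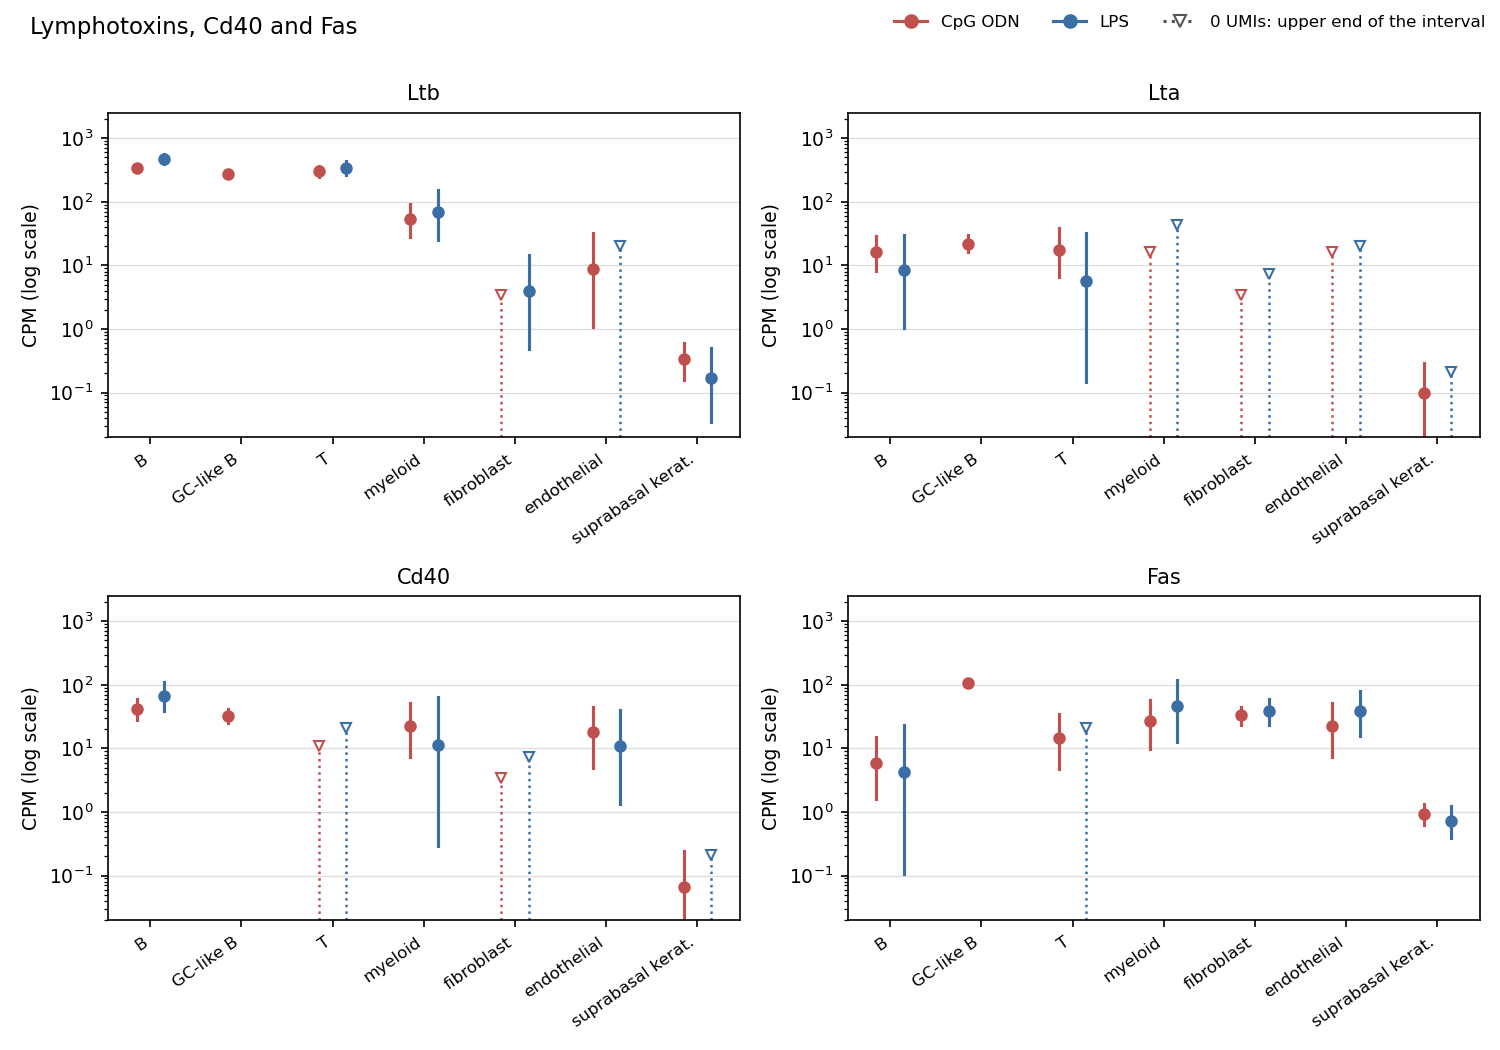
Levels of Ltb, Lta, Cd40 and Fas (CPM, log axis) in 7 cell classes, with red points for CpG ODN and blue points for LPS; bars are exact 95% counting intervals and open triangles give the upper end of the interval where no UMI was found. Ltb lay between 279 and 473 CPM in the lymphocyte classes, and Fas was at 106 CPM in GC-like B cells against 5.93 CPM in B cells of the same library.

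Lta, the secreted partner that joins Ltb on the cell surface or forms a soluble trimer, was much rarer, with 69 UMIs after CpG ODN and 4 after LPS. GC-like B cells held 44 UMIs (22.1 CPM, 16.1–29.7) in 37 of 238 cells. B cells had 11 UMIs (16.3 CPM, 8.14–29.2) after CpG ODN and 2 UMIs (8.45 CPM) after LPS, and T cells had 6 UMIs (17.6 CPM, 6.46–38.3) and 1 UMI (5.72 CPM). The level in the 3 lymphocyte classes of the CpG ODN library differed by less than the counting error, with a GC-like B over B ratio of 1.36 (0.690–2.92). Lymphocytes held 88.4% of the Lta UMIs after CpG ODN. No UMI was found in fibroblasts or endothelial cells of either library, and the LPS library had too few UMIs for a ratio in any class. Of the GC-like B cells, 28 had UMIs of Lta and Ltb together, 9 of Lta alone, 146 of Ltb alone and 55 of neither.

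Tnf outside myeloid cells was found in the gland or simple epithelial cells, in lymphocytes and, at a low level, in keratinocytes. For reference, myeloid cells had 64 UMIs (285 CPM, 220–364) after CpG ODN and 134 UMIs (1546 CPM, 1296–1832) after LPS, of which 63 UMIs came from 1 cell. Fibroblasts, used as a class that should lack Tnf, had 0 UMIs in 237 cells and 1 UMI (2.01 CPM) in 54 cells, at median depths of 4088 and 8769.5 UMIs.

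Gland or simple epithelial cells had 59 Tnf UMIs (44.8 CPM, 34.1–57.8) after CpG ODN and 52 UMIs (36.2 CPM, 27–47.5) after LPS. Relative to keratinocytes this was 58.6 times (39.3–87.6) and 19.1 times (13.0–28.1) as high, and 38.0 and 30.6 times as a mean over cells, or 38.9 times after CpG ODN at clustering resolution 2.0. The UMIs came from few cells. After CpG ODN, 16 of 97 cells had a UMI and 1 cell held 20 of the 59, and after LPS 17 of 63 cells had a UMI and 1 cell held 14 of the 52. Both clusters of the class carried it, with 48.1 and 37.6 CPM in the cluster led by Reg3g, Wfdc18, Ltf and Six3 and 32.4 and 32.1 CPM in the mucous gland cluster led by Bpifb2, Muc19 and Muc5b. The CpG ODN over LPS ratio was 1.24 (0.839–1.83), and it was 0.622 when the CPM of each cell was averaged in place of summing the UMIs, so no direction between the libraries can be given.

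Among lymphocytes, GC-like B cells had 32 Tnf UMIs (16.1 CPM, 11–22.7) in 29 of 238 cells, B cells 6 UMIs (8.90 CPM, 3.26–19.4) and T cells 3 UMIs (8.80 CPM, 1.81–25.7) after CpG ODN. The GC-like B over B ratio was 1.81 (0.747–5.30), within counting error. After LPS, B cells had 1 UMI and T cells had no UMI, where a count of 0 in 27 cells allows up to 17.2 CPM.

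In keratinocytes, Tnf reached 48 UMIs (0.766 CPM, 0.564–1.02) in 43 of 3657 cells after CpG ODN and 63 UMIs (1.89 CPM, 1.45–2.42) in 40 of 959 cells after LPS, a ratio of 0.405 (0.272–0.599). The same direction was measured in basal keratinocytes, at 9 and 15 UMIs (0.779 and 2.28 CPM, ratio 0.341, 0.132–0.833), and in suprabasal keratinocytes, at 31 and 37 UMIs (1.03 and 2.09 CPM, ratio 0.491, 0.295–0.813). The ratio over all keratinocytes was 0.568 with classes from signature genes and 0.501 as a mean over cells, both short of the fold. The levels of 0.766 and 1.89 CPM were under what the fibroblasts allow after CpG ODN (2.75 CPM) and showed after LPS (2.01 CPM on 1 UMI, 0.0509–11.2). Those of the layers after LPS were close to the latter. With 0 and 1 UMIs, the fibroblasts set too loose a limit to tell whether this signal was above background. Of the 13 keratinocyte clusters after LPS, the highest was the one of 33 cells led by Lor, a cornified envelope protein, with 18 UMIs in 8 cells (6.65 CPM, 3.94–10.5), followed by the cluster led by H19 with 8 UMIs (4.22 CPM, 1.82–8.31), and their intervals overlapped each other and that of the fibroblasts. Among the low clusters, the one led by Selenbp1, Cryba2 and Krt76 had 1 UMI in 86 cells after LPS (0.239 CPM, 0.00606–1.33), under both of those intervals. These clusters were picked by their values. The cluster led by Lor had 3 UMIs in 90 cells (0.941 CPM, 0.194–2.75) after CpG ODN. An unnamed cluster led by BC037156, Sprr2d and Odam, which could not be given a class, showed a like contrast with 2 UMIs in 17 cells (8.43 CPM, 1.02–30.4) after CpG ODN and 27 UMIs in 10 of 18 cells (44.3 CPM, 29.2–64.5) after LPS. Its ratio was 0.190 (0.0219–0.756), and its median depth was 10535 and 31529 UMIs per cell. The LPS cells were deeper in each of these classes, and the part of depth and of free RNA in these differences was not tested.

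Tnfsf10, which encodes the death ligand TRAIL, was an endothelial gene in both libraries. Endothelial cells had 14 UMIs (62.2 CPM, 34.0–104) in 12 of 49 cells after CpG ODN and 10 UMIs (55.3 CPM, 26.5–102) in 8 of 24 cells after LPS, with a ratio of 1.12 (0.464–2.83). The next levels were those of T cells (8.80 and 5.72 CPM, on 3 and 1 UMIs) and of gland or simple epithelial cells (4.56 CPM, 1.67–9.92, and 6.26 CPM, 2.86–11.9). No UMI was found in GC-like B cells, fibroblasts or mural cells. Thinned to 1500 UMIs, 10.3% and 9.89% of the endothelial cells had a UMI, against unthinned shares of 24.5% and 33.3%, and 1 of 283 B cells at a median of 2149 UMIs had one.

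Tnfsf13b, which encodes BAFF, was near the limit of detection, with 12 UMIs after CpG ODN and 4 after LPS in all kept cells. Myeloid cells held 4 UMIs (17.8 CPM, 4.86–45.6) and 3 UMIs (34.6 CPM, 7.14–101), each in 2 cells. Fibroblasts, a stromal source in lymphoid tissue, had 1 UMI (0.916 CPM) and none. Its receptors were clear in B cells. Tnfrsf13c, the BAFF receptor, was at 194 and 190 CPM in B cells (131 and 45 UMIs) and at 276 CPM in GC-like B cells (548 UMIs), and Tnfrsf13b, which encodes TACI, at 156 and 114 CPM in B cells (105 and 27 UMIs) and at 129 CPM in GC-like B cells (257 UMIs). The third receptor, Tnfrsf17, had 3 UMIs in all.

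Among the receptors, Tnfrsf1a was found in every class but B cells. Endothelial cells were highest with 44 UMIs (195 CPM, 142–262) after CpG ODN and 37 UMIs (205 CPM, 144–282) after LPS, followed by fibroblasts with 116 UMIs (106 CPM, 87.8–127) and 73 UMIs (147 CPM, 115–184). Keratinocytes had 3019 UMIs (48.2 CPM, 46.4–49.9) and 1891 UMIs (56.7 CPM, 54.2–59.3). The level in endothelial cells was 4.06 times (2.94–5.46) and 3.61 times (2.53–4.99) that in keratinocytes, and the level in fibroblasts 2.21 times (1.82–2.66) and 2.58 times (2.02–3.27). Endothelial cells exceeded fibroblasts beyond counting error after CpG ODN (1.84, 1.27–2.62) but not after LPS (1.4, 0.914–2.10). Mural cells (73.2 and 66.3 CPM) and gland or simple epithelial cells (56.2 and 45.9 CPM) lay between fibroblasts and T cells (29.3 and 22.9 CPM).

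B cells had no Tnfrsf1a UMI in 283 cells after CpG ODN, which allows up to 4.45 CPM, and none in 69 after LPS, which allows up to 12.7 CPM. At their median depths of 2149 and 3157 UMIs, cells that express the gene can have no UMI, so the share of such cells is not limited by these counts. GC-like B cells had 6 UMIs (3.02 CPM). A UMI was found in 1827 of 3657 and 736 of 959 keratinocytes, at median depths of 13191 and 27175 UMIs, and in 7.17% and 8.43% after thinning to 1500 UMIs. Thinned shares were 15% and 18.4% in fibroblasts and 26.6% and 26.5% in endothelial cells, the same order of classes as the CPM.

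Between the libraries, Tnfrsf1a was slightly lower after CpG ODN in keratinocytes (0.849, 0.801–0.899), in basal (0.865, 0.759–0.987) and suprabasal (0.822, 0.757–0.892) keratinocytes and in fibroblasts (0.724, 0.536–0.985). The ratios of endothelial (0.954, 0.602–1.52), mural (1.10, 0.590–2.17) and gland or simple epithelial cells (1.22, 0.866–1.73) had intervals that held 1. None was past the fold. Over the 13 keratinocyte clusters the level ran from 35 to 67.5 CPM (median 50.6) after CpG ODN and from 42.4 to 89.4 CPM (median 58.0) after LPS. The cluster led by Lor was the highest in both libraries, with a UMI in 76 of 90 and in 33 of 33 cells.

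Tnfrsf1b, the second TNF receptor, was sparse, with 34 and 27 UMIs in all cells. Myeloid cells had 11 UMIs (49.0 CPM) and 19 UMIs (219 CPM, 132–342), a ratio of 0.223 (0.0961–0.494). Endothelial cells had 7 UMIs (31.1 CPM, 12.5–64.0) and 2 UMIs (11.1 CPM, 1.34–40.0), and T cells 6 UMIs (17.6 CPM) and 1 UMI (5.72 CPM). Keratinocytes, the class taken as lacking it, had 2 UMIs in 3657 cells (0.0319 CPM) and 1 UMI in 959 (0.0300 CPM), so the counts in endothelial and T cells after CpG ODN were above background while the LPS counts were too few to place.

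**Figure D3:**
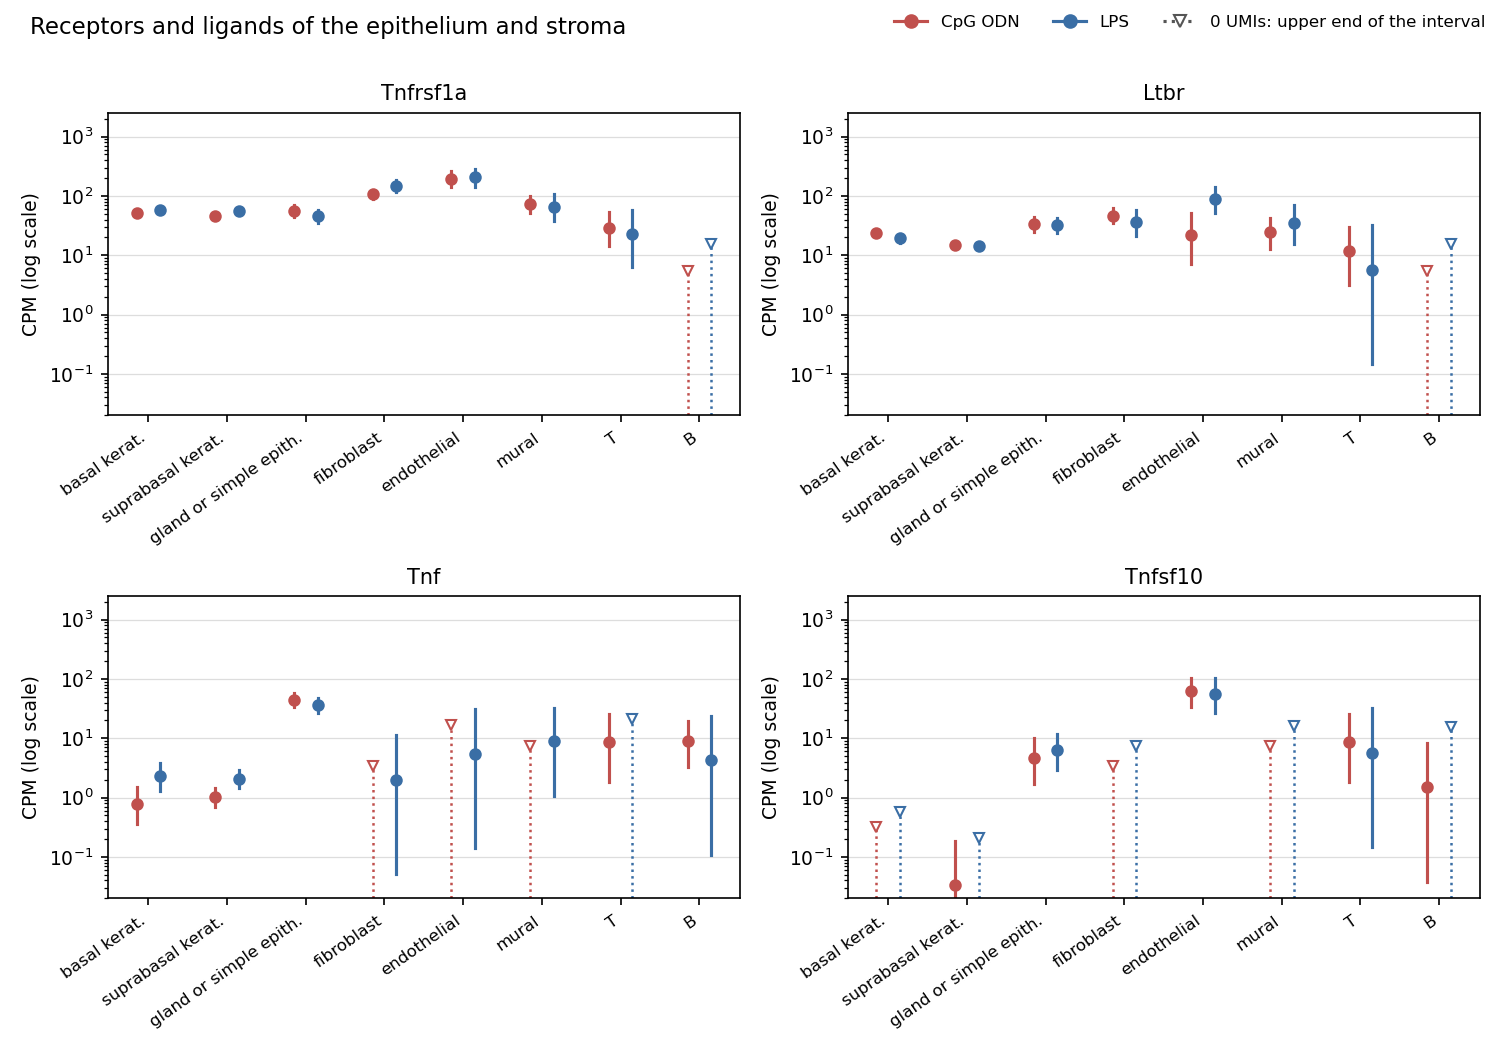
Levels of Tnfrsf1a, Ltbr, Tnf and Tnfsf10 (CPM, log axis) in 8 cell classes, with red points for CpG ODN and blue points for LPS; bars are exact 95% counting intervals and open triangles give the upper end of the interval where no UMI was found. Tnfrsf1a ran from no UMI in B cells to 195 and 205 CPM in endothelial cells, and the Ltbr points of the libraries separated in endothelial cells, at 22.2 and 88.6 CPM.

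Ltbr, the receptor of the lymphotoxin heterotrimer, was lowest in lymphocytes, where Ltb was highest. Myeloid cells had both, with Ltbr at 44.5 CPM (10 UMIs) and 23.1 CPM (2 UMIs) beside Ltb at 53.5 and 69.2 CPM. Fibroblasts had 51 UMIs (46.7 CPM, 34.8–61.4) and 18 UMIs (36.2 CPM, 21.4–57.1), gland or simple epithelial cells 44 (33.4 CPM) and 46 (32.0 CPM), mural cells 12 (24.4 CPM) and 8 (35.3 CPM), T cells 4 (11.7 CPM) and 1 (5.72 CPM), and keratinocytes 1199 (19.1 CPM, 18.1–20.2) and 595 (17.9 CPM, 16.4–19.3). The fibroblast level was 2.44 times (1.81–3.23) and 2.03 times (1.19–3.23) the keratinocyte level. The 4 T cell UMIs after CpG ODN came from 1 cell. B cells had no Ltbr UMI in either library, and GC-like B cells had 4 (2.01 CPM). Over 24 points of class and library, the correlation of log2(CPM + 1) of Ltb with Ltbr was −0.74, given as a description since the points share libraries and depth.

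The largest difference between the libraries was in endothelial cells, with 5 Ltbr UMIs in 49 cells (22.2 CPM, 7.21–51.8) after CpG ODN and 16 in 24 cells (88.6 CPM, 50.6–144) after LPS, a ratio of 0.251 (0.0718–0.716). It rests on 21 UMIs and ran from 0.238 to 0.267 over the alternatives tried. In keratinocytes the ratio was 1.07 (0.970–1.18), in fibroblasts 1.29 (0.742–2.35) and in mural cells 0.691, all within counting error. A UMI was found in 26.4% and 41.4% of the keratinocytes and, after thinning, in 3.17% and 2.84%. The keratinocyte clusters ran from 5.65 to 30.5 CPM and from 4.8 to 28.3 CPM, lowest in the cluster led by Lor, where Tnfrsf1a was highest, and highest in a dividing cluster led by Anln, Pbk and Aspm.

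Cd40 was mainly found in B cells in these libraries. B cells had 28 UMIs (41.5 CPM, 27.6–60.0) in 27 cells (9.54%) after CpG ODN and 16 UMIs (67.6 CPM, 38.6–110) in 12 cells (17.4%) after LPS, with a ratio of 0.614 (0.321–1.22). GC-like B cells had 64 UMIs (32.2 CPM, 24.8–41.1) in 49 cells (20.6%) at a median of 5950 UMIs, and differed from B cells by less than counting error (0.776, 0.491–1.26). The B, GC-like B and T cells held 84.4% of the 109 and 84.2% of the 19 UMIs. T cells had none in 85 and 27 cells at median depths of 2834 and 5092 UMIs, and fibroblasts had none. Myeloid cells had 5 UMIs (22.3 CPM, 7.23–52.0) in 5 of 34 cells (14.7%) after CpG ODN and 1 UMI (11.5 CPM) after LPS. Endothelial cells had 4 UMIs (17.8 CPM) and 2 UMIs (11.1 CPM), and keratinocytes 5 UMIs (0.0797 CPM) and 0. The T cell ligand Cd40lg had 1 UMI in each library. When B cells were chosen by signature genes, the LPS level was 4.68 CPM in place of 67.6 CPM and the ratio 7.11 in place of 0.614, so no direction between the libraries can be given.

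Fas, the death receptor that is also a surface marker of germinal-centre B cells, was at its highest in GC-like B cells, with 211 UMIs (106 CPM, 92.4–122) in 124 of 238 cells (52.1%, 45.6–58.6). B cells of the same library had 4 UMIs (5.93 CPM) in 1.41% of cells, and the ratio was 17.9 (6.89–66.3). Fas took no part in the clustering, but cells were grouped by genes that change with it, so the ratio is a description. Both clusters carried it, at 114 CPM (91.5–141) and 101 CPM (84.3–121). Thinned to 1500 UMIs, 15.7% of the GC-like B cells had a UMI. In the LPS library, 2 of the 4 GC-like B cells had 5 UMIs together, and B cells had 1 UMI in 69 cells.

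Within the GC-like B cells, 114 had no Fas UMI, 76 had 1, 25 had 2 and 23 had 3 or more, up to 6. UMIs of Fas and Cd40 were found together in 35 cells, Fas alone in 89, Cd40 alone in 14 and neither in 100. Fas and Ltb were found together in 92, Fas alone in 32, Ltb alone in 82 and neither in 32. The Fas ligand gene, Fasl, had 4 UMIs in each library, of which T cells held 3 and 4.

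Outside B cells, Fas was found in stromal, gland, myeloid and basal epithelial cells. Myeloid cells had 6 and 4 UMIs (26.7 and 46.2 CPM), endothelial cells 5 and 7 (22.2 and 38.7 CPM), and T cells 5 (14.7 CPM) and 0. Fibroblasts had 36 and 19 UMIs (33.0 and 38.2 CPM), mural cells 16 and 10 (32.5 and 44.2 CPM) and gland or simple epithelial cells 42 and 31 (31.9 CPM, 23–43.1, and 21.6 CPM, 14.7–30.6). The mural class held 2 clusters. The larger had 14 and 4 Fas UMIs (31.2 and 23.7 CPM). The smaller, of 11 and 6 cells with Krt14 in 100% of them, had 2 and 6 (45.8 and 104 CPM). The CpG ODN over LPS ratios in fibroblasts (0.864, 0.482–1.59), gland or simple epithelial cells (1.48, 0.908–2.43) and keratinocytes (0.957, 0.709–1.30) had intervals that held 1. Gland or simple epithelial cells exceeded keratinocytes by 15.9 times (10.9–22.7) and 10.3 times (6.50–15.9).

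Layers of the epithelium differed in Fas. Basal keratinocytes had 60 UMIs (5.19 CPM, 3.96–6.69) after CpG ODN and 44 UMIs (6.70 CPM, 4.87–8.99) after LPS, and suprabasal keratinocytes 28 UMIs (0.927 CPM) and 13 UMIs (0.734 CPM). The suprabasal over basal ratio was 0.179 (0.110–0.284) and 0.110 (0.0542–0.207), or −2.49 and −3.19 on the log2 scale, where the median of all genes was −0.51 and −0.49. Suprabasal cells had more UMIs, with medians of 27039 and 49984 against 9430 and 18740.5 in basal cells, and even as UMIs per cell Fas was lower there (0.0268 against 0.0513, and 0.0408 against 0.133). Ltbr was less different between layers, at 0.639 (0.549–0.746) and 0.740 (0.595–0.924), and Tnfrsf1a at 0.921 (0.836–1.02) and 0.970 (0.861–1.09). The keratinocyte cluster led by H19 had the highest Fas level in both libraries (10.2 and 8.96 CPM), and the cluster led by Lor had no UMI.

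Counted over the members, the ratios between the libraries past the fold are read here against all genes of the same class. In myeloid cells, 2 of 3 members (Tnf and Tnfrsf1b) were lower after CpG ODN, with a median ratio of 0.223, where 14.7% of all genes were higher and 11.9% lower. With classes from signature genes these ratios were 0.568 and 0.696, short of the fold. In the Odam-led cluster, 2 of 3 were lower, where 5.57% of all genes were higher and 6.72% lower. They were Tnf and Ltbr, and Ltbr had 4 and 23 UMIs (16.9 and 37.8 CPM, ratio 0.446, 0.112–1.31, and 1.02 as a mean over cells). In keratinocytes, 5 members had at least 20 UMIs and 1 of them (Tnf) was past the fold, lower after CpG ODN, where 1.27% of all 13551 genes were higher and 2.65% lower. That Tnf ratio was short of the fold with classes from signature genes and as a mean over cells, as given above. In endothelial cells, 1 of 3 (Ltbr) was lower, where 6.10% of all genes were higher and 3.70% lower. None of 4 members was past the fold in gland or simple epithelial cells (all genes 8.60% higher, 5.91% lower), none of 2 in B cells (7.14% and 2.95%), not the 1 in T cells (6.36% and 4.36%), none of 3 in fibroblasts (5.13% and 3.57%) and none of 3 in mural cells (6.15% and 6.19%). The median ratio of the members was 0.957 in keratinocytes, 0.864 in fibroblasts and 0.954 in endothelial cells. Between cell states, 1 of 5 members (Fas) was higher in GC-like B than in B cells, where 23.9% of all genes were higher and 9.91% lower. In suprabasal over basal keratinocytes, 1 of 4 members (Fas) was lower in each library, where 10.4% of all genes were higher and 30.9% lower after CpG ODN and 11.1% and 29.2% after LPS.

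**Figure D4:**
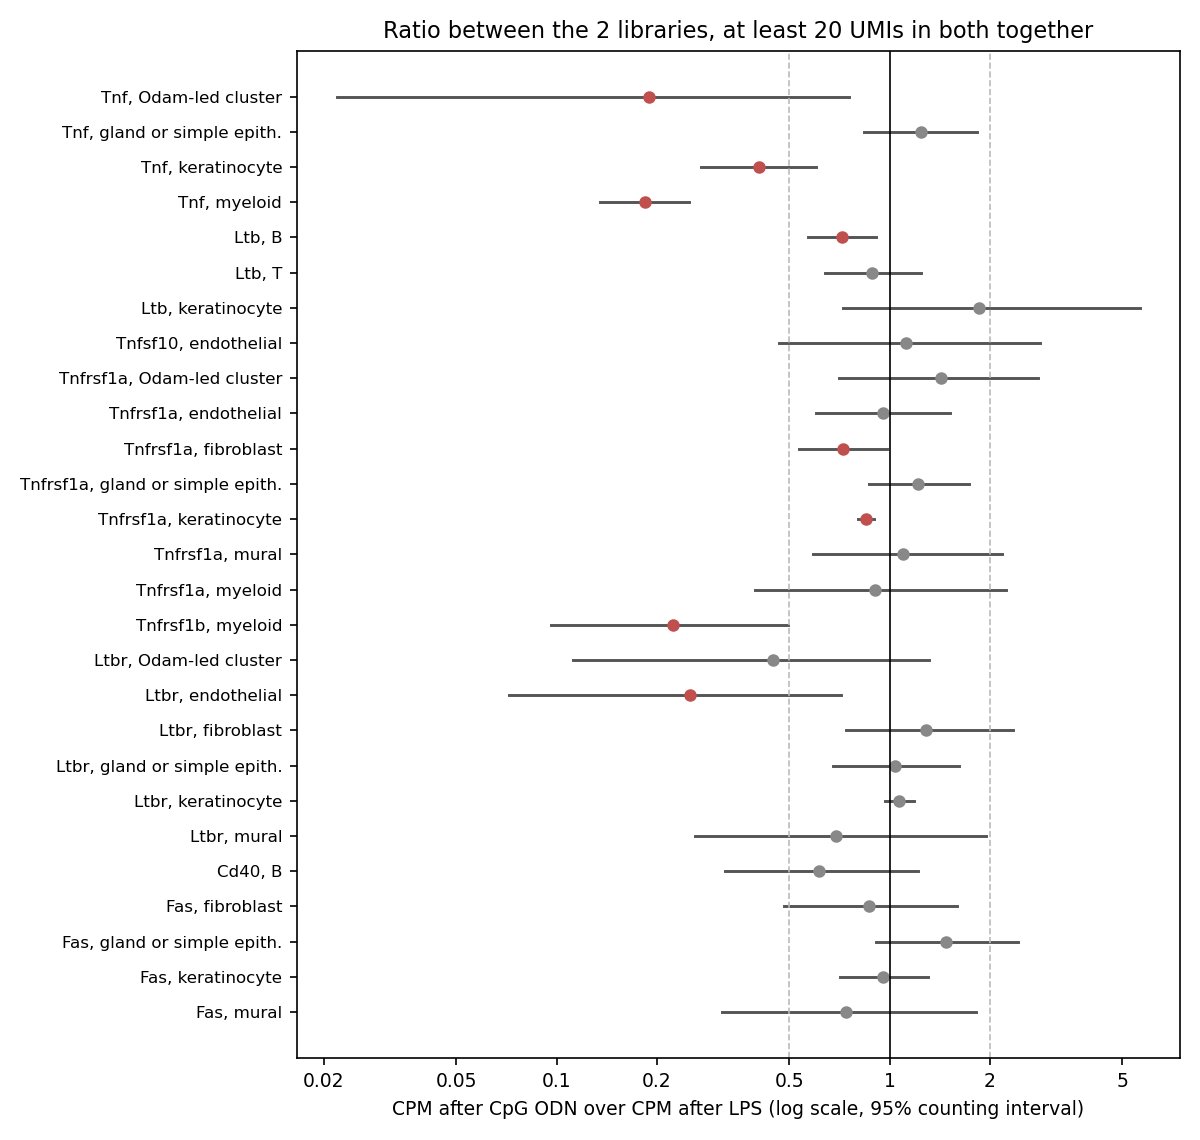
Ratio of the CPM after CpG ODN to that after LPS (log axis) for each member and class with at least 20 UMIs in both libraries together, keratinocyte layers not drawn apart; lines are exact 95% counting intervals, red points have intervals without 1, and dashed lines mark 0.5 and 2. Most points lie between the dashed lines, and all red points lie under 1, among them Tnf in keratinocytes (0.405) and Ltbr in endothelial cells (0.251).

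The red points of that plot, 8 in number with 2 of them from myeloid cells, share the LPS library as denominator, and whether mice, depth or treatment set their direction cannot be told apart with 1 library each. The 36 other genes of the superfamily, 25 of which had at least 20 UMIs in all, were taken from a fixed list together with 48 pathway genes.

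Among the other ligands, Tnfsf12, which encodes TWEAK, was highest in stromal and myeloid cells, and the stromal values are given here. It reached 114 and 102 CPM in fibroblasts (125 and 51 UMIs), 111 and 116 CPM in endothelial cells (25 and 21 UMIs) and 71.2 and 97.2 CPM in mural cells (35 and 22 UMIs). Its receptor Tnfrsf12a was found in fibroblasts (131 and 135 CPM, 143 and 67 UMIs), gland or simple epithelial cells (124 and 157 CPM) and keratinocytes (24.8 and 30.0 CPM). In T cells, Cd27 was at 126 and 68.7 CPM (43 and 12 UMIs) and Tnfrsf18, which encodes GITR, at 73.3 and 80.1 CPM (25 and 14 UMIs). Over all kept cells Tnfrsf18 had 348 and 137 UMIs, and it was also found in basal keratinocytes, as given below. Tnfsf8, the CD30 ligand, had 22 UMIs in 8 T cells after CpG ODN and was not found in the 27 T cells after LPS.

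**Figure D5:**
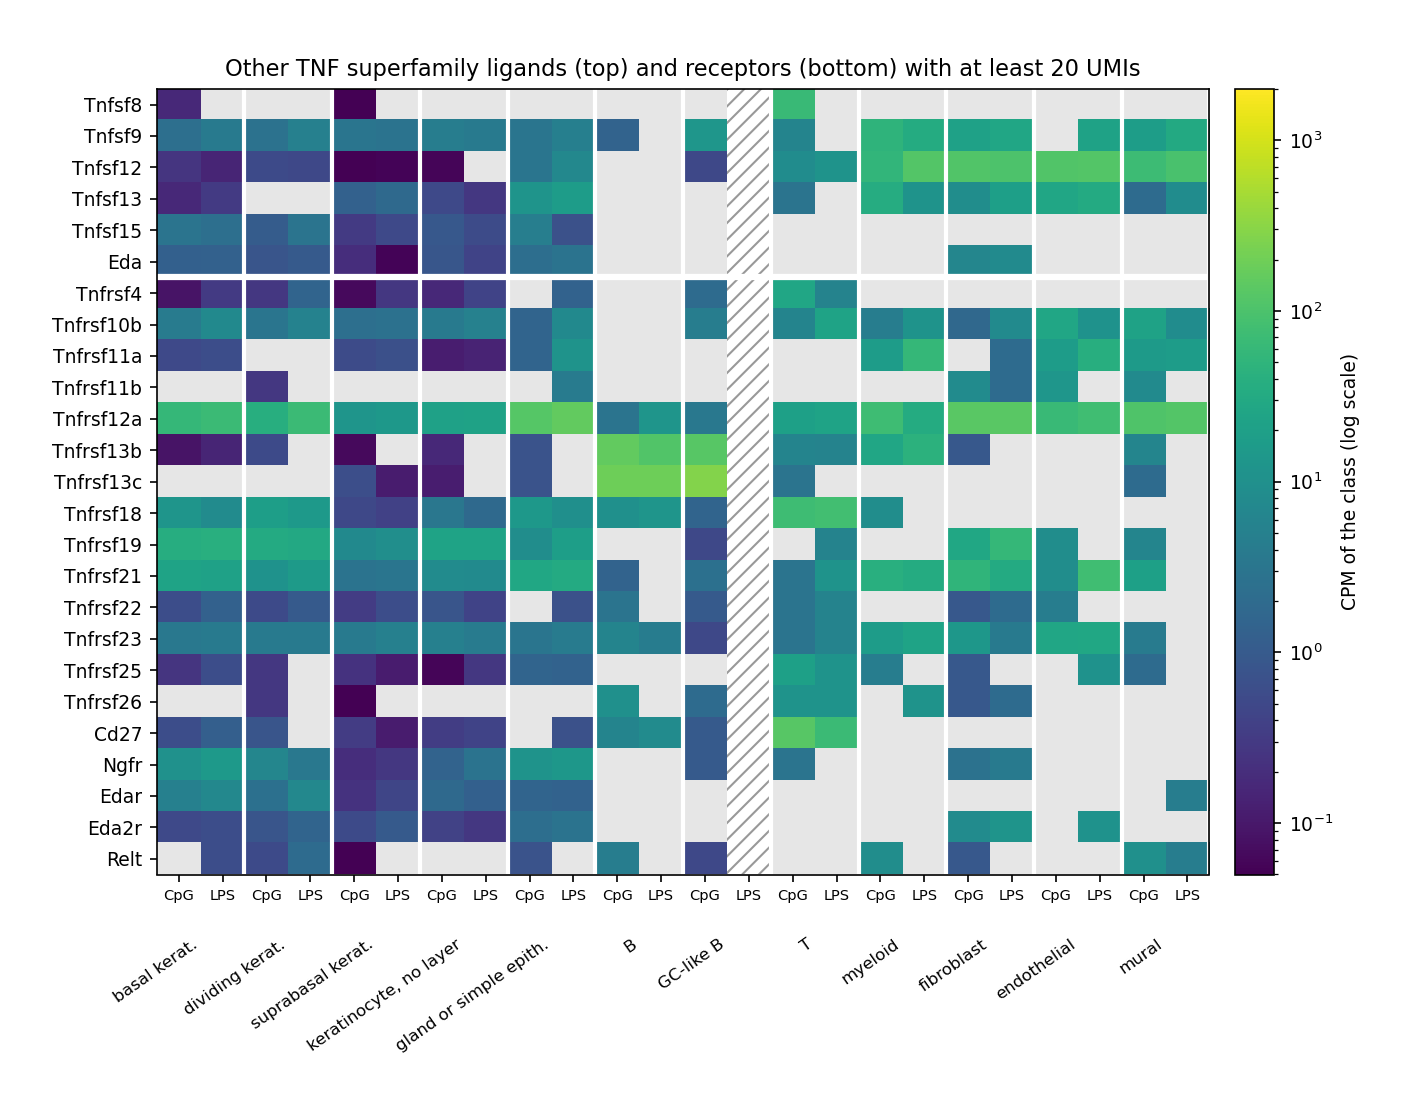
Level of the 25 other TNF superfamily genes with at least 20 UMIs (6 ligands at the top, 19 receptors below) in the same classes and colours as the map of the members. Tnfrsf13b and Tnfrsf13c were highest in B and GC-like B cells, Tnfsf12 in fibroblasts, endothelial, mural and myeloid cells, and Cd27 in T cells.

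Several receptors of the superfamily were basal. In suprabasal over basal keratinocytes, 8 of 14 other superfamily genes were lower and 1 higher after CpG ODN, and 9 of 13 were lower and 1 higher after LPS, with median ratios of 0.211 and 0.229, beside the 30.9% and 29.2% of all genes given above. Ngfr, a neurotrophin receptor, fell from 124 to 6 UMIs between the layers (ratio 0.0185) and from 99 to 5 (0.0188). Tnfrsf18 had 142 against 15 UMIs (0.0404) and 55 against 7 (0.0473), and Edar, the ectodysplasin receptor of skin appendages, 58 against 7 (0.0462) and 47 against 8 (0.0632). In the other direction, Tnfaip2, a TNF-induced gene, had 69 UMIs in suprabasal and 1 in basal keratinocytes after CpG ODN (26.4, 4.58–1057) and 103 and 2 after LPS (19.1, 5.16–160). Tnfrsf19 was at 36.7 and 40.5 CPM in basal keratinocytes. Its suprabasal level is not given, so it is not named as a basal receptor here.

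Of the pathway genes in keratinocytes, 3 of 39 were higher and 2 lower after CpG ODN, with a median ratio of 0.949, beside 1.27% and 2.65% of all genes. The other 34 were within the fold. The 3 higher ones each had under 50 UMIs and are not named. The 2 lower ones were among the 18 lymphotoxin and TNF targets of the list. Tnfaip3, which encodes the NF-κB inhibitor A20, had 948 UMIs (15.1 CPM) and 1039 UMIs (31.2 CPM), a ratio of 0.485 (0.444–0.530), and Tnfaip2 had 72 UMIs (1.15 CPM) and 111 UMIs (3.33 CPM), a ratio of 0.345 (0.253–0.468). Both were also past the fold in suprabasal keratinocytes (0.476 and 0.393). In dividing keratinocytes the chemokine Ccl20 had 10 and 69 UMIs (2.75 and 34.7 CPM, ratio 0.0792, 0.0364–0.155), and Icam1, an adhesion molecule, was at 55.7 and 114 CPM (0.489). Ripk3, a kinase of necroptosis, went the other way in suprabasal keratinocytes, with 65 and 11 UMIs (2.15 and 0.621 CPM, ratio 3.46, 1.81–7.28).

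In gland or simple epithelial cells, 1 of 29 pathway genes was higher and 1 lower, beside 8.60% and 5.91% of all genes. Tnfaip2 had 143 and 31 UMIs (109 and 21.6 CPM, ratio 5.04, 3.40–7.69), opposite in direction to keratinocytes, and Ccl20 had 26 and 60 UMIs (19.8 and 41.8 CPM, ratio 0.473). Of the 6 other superfamily genes with enough UMIs there, 1 was lower. Tnfrsf10b, the mouse TRAIL receptor, was at 3.16 and 4.35 CPM in keratinocytes (198 and 145 UMIs), and Adam17, the sheddase of TNF, at 26.3 and 25.5 CPM (1647 and 851 UMIs).

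In fibroblasts, 2 of 25 pathway genes were higher and 1 lower after CpG ODN, beside 5.13% and 3.57% of all genes. Vcam1, an adhesion molecule and lymphotoxin target, had 70 and 9 UMIs (64.1 and 18.1 CPM, ratio 3.55, 1.76–8.07), and the collagen-degrading enzyme Mmp3 had 93 and 99 UMIs (85.2 and 199 CPM, ratio 0.428, 0.319–0.574). Tnfrsf19, 1 of the 2 lower among 6 other superfamily genes, had 30 and 29 UMIs (27.5 and 58.3 CPM, ratio 0.472, 0.273–0.814). The homeostatic chemokine Ccl19 was at 117 and 82.4 CPM (128 and 41 UMIs), and Cxcl13 had 48 UMIs from 4 fibroblasts after CpG ODN.

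In endothelial cells, 3 of 14 pathway genes were higher and none lower, beside 6.10% and 3.70% of all genes. Neither of 2 other superfamily genes was past the fold. The membrane protease Adam10 had 61 and 22 UMIs (271 and 122 CPM, ratio 2.22, 1.35–3.80). Glycam1, a mucin-like ligand of high endothelial venules, was counted among the higher genes on 4099 UMIs that all came from 1 of the 49 CpG ODN cells, which had 15131 UMIs in all. That cell had no UMI of Ltbr and 2 of Tnfrsf1a. Keratinocytes after CpG ODN had 21 UMIs of Glycam1, a gene they should lack, and LPS keratinocytes had none.

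In mural cells, 2 of 11 pathway genes were higher and none lower, beside 6.15% and 6.19% of all genes. Neither of 2 other superfamily genes was past the fold. In B cells, 1 of 21 pathway genes was higher and none lower, beside 7.14% and 2.95% of all genes. Neither of 2 other superfamily genes was past the fold. In T cells, 2 of 15 pathway genes were higher and 2 lower, beside 6.36% and 4.36% of all genes. Among those lower was Birc2, a ubiquitin ligase of the receptor complex, at 73.3 and 149 CPM (0.493, 0.273–0.888). Of 3 other superfamily genes, 1 was higher, that being Tnfsf8.

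In myeloid cells, of which there were 34 and 13, 2 of 13 pathway genes were higher and 3 lower after CpG ODN. Of all genes, 14.7% were higher and 11.9% lower. Of 2 other superfamily genes, 1 was higher and 1 lower. The pathway genes past the fold with at least 50 UMIs were Tnfaip2 (ratio 0.292) and Bcl2a1b, an inhibitor of apoptosis (0.430), both lower, and Icam1 (2.19), higher. In the cluster led by BC037156, Sprr2d and Odam, 2 of 12 pathway genes were lower and none higher, beside 6.72% and 5.57% of all genes. Of 4 other superfamily genes, 3 were lower. Among these, Tnfrsf11b, the decoy receptor osteoprotegerin, had 4 and 69 UMIs (16.9 and 113 CPM, ratio 0.149), and Tnfrsf12a had 23 and 130 UMIs (96.9 and 213 CPM, ratio 0.454).

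Against B cells, GC-like B cells had 7 of 33 pathway genes higher and 1 lower, with a median ratio of 0.969, and 1 of 3 other superfamily genes higher. Those higher included Bid, the link from death receptors to mitochondria (105 and 7 UMIs, 52.9 and 10.4 CPM, ratio 5.09, 2.39–13.0), and Tnfaip8 (455 and 70 UMIs, 229 and 104 CPM, ratio 2.21, 1.71–2.88). The lower one was Birc3, an inhibitor of apoptosis and NF-κB target, with 54 and 61 UMIs (27.2 and 90.4 CPM, ratio 0.301, 0.204–0.441). Beside the 23.9% of all genes that were higher, 7 of 33 is no larger a share. Traf1, an adaptor of TNFR2, was at 126 and 85.8 CPM in T cells (43 and 15 UMIs), 46.0 CPM in B cells and 44.3 CPM in GC-like B cells of the CpG ODN library. Map3k14, which encodes the kinase NIK of the non-canonical pathway, was at 16.3 CPM in B cells, 11.1 CPM in GC-like B cells and 2.31 and 2.04 CPM in keratinocytes, and Traf3, which holds NIK in check, at 8.69 and 8.25 CPM in keratinocytes.

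The genes with the most similar levels over the 24 points of class and library with at least 20 cells were found by Pearson correlation of log2(CPM + 1), as a description of points that share libraries and depth. For Ltb they were Rhoh (0.985), Rac2 (0.976) and Ikzf1 (0.968), for Cd40 Rasgrp3 (0.961), Lyn (0.888) and Lmo2 (0.884), and for Fas Sh3bgrl (0.818), Atf4 (0.817) and Pgp (0.809). Tnfrsf1a went with Anxa4 (0.961), Bag3 (0.954) and Tmem159 (0.953), and Ltbr with Anxa4 (0.947), Tmbim1 (0.939) and Anxa5 (0.935). For Tnf they were Tnip3 (0.805), Ccl9 (0.798) and Il1a (0.775). Among the members themselves, Tnfrsf1a and Ltbr were closest (0.95), while Ltb was at −0.70 with Tnfrsf1a and 0.63 with Cd40.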

How the data were processed

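Palatal gingiva of 2 groups of 4 mice was profiled by 10x Genomics Chromium 3′ single-cell RNA sequencing, with 1 library per ligand. The authors deposited raw counts of UMIs per gene and barcode, made with Cell Ranger (version 4.0.0 per the file headers), and their notes also name Seurat; the genome build is not given in the sources used here. Gene positions were taken by identifier from GENCODE M21 (GRCm38), and promoters from RefSeq (GRCm38.p6).

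Barcodes with at least 800 detected genes were kept, which left out 1331 of the CpG ODN library (23.5% of their UMIs hemoglobin) and 739 of the LPS library (74.8%). For clustering, each cell was scaled to 10000 UMIs and put on a log scale, and 2000 variable genes, 30 components, 15 neighbours and Leiden resolution 1.0 gave the clusters, with 94 genes of the lists held out, the members among them. A marker counted when at least 20% of a cluster had it at 2 times its mean over the remaining coarse clusters (resolution 0.05, and 1.5 times for keratinocyte layers), and a name needed 3 markers. These scoring rules were set after the clusters were seen. Clusters scored as epithelial stayed unnamed when Cd79a, Cd3e, Lyz2 or Col1a1 was found in at least 50% of their cells. This rule did not cover other classes. A mural cluster of 17 cells with Krt14 in 100% of them, and an erythroid cluster with Krt14 in 94.9%, kept their names. The members and lists were chosen with earlier results of these data known.

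Levels are UMIs summed by class per 1000000, with exact Poisson intervals. Ratios have exact conditional binomial intervals and shares Clopper-Pearson intervals, at 95%, all covering counting error only. Shares were also thinned to 1500 UMIs per cell, and a count of 0 was taken to allow 3. With 1 library per ligand no test was made. Genes outside the members were named when past the fold with at least 50 UMIs, at most 4 per class, when they partner a member and have at least 20 UMIs, or when among the 3 most alike. A gene that this rule names is not reported here. Tnfsf8, Tnfsf12, Tnfrsf12a, Cd27, Tnfrsf17, Fasl, Cd40lg, Ccl19, Cxcl13, and Tnfrsf18 and Tnfrsf19 in the classes where they are given as levels, were named after their values were seen. The alternatives were other gene minima, resolutions and components, signature genes, doublets or mixed cells left out, the mean over cells, the highest cell left out, other folds and minima and, chosen after seeing the data, single clusters of the GC-like B and gland classes. Scrublet marked 0.348% and 0.235% of the cells, too few to be relied on, so doublets were kept. Ccl19 and Ccl21a, each listed under 2 identifiers, were summed. Reads that Tnfsf13b or Fas share with the overlapping Gm44789 or Gm27818 could not be told apart. The calculations were tested on simulated data. Python 3.11.15, numpy 2.4.6, scipy 1.17.1, pandas 2.3.3, scikit-learn 1.9.0, scanpy 1.11.5, leidenalg 0.10.2, igraph 0.11.9 and matplotlib 3.10.9 were used.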

Additional observations from a re-analysis of the deposited data

Results flagged for a closer look

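Barcodes with under 800 detected genes took no part in the comparisons and still held UMIs of several members above the 3 counts that a count of 0 allows. Of the 1331 such barcodes of the CpG ODN library, 226 had 341 UMIs of Ltb in all (211 CPM, 189–235), and 203 of those 226 also had a UMI of the B cell gene Cd79a. Cd40 had 43 UMIs in 41 barcodes, 40 of them with Cd79a. In all, 505 of these barcodes had a UMI of Cd79a. The other members above that limit were Tnf with 26 UMIs, Tnfrsf1a with 22, Fas with 13 and Ltbr with 6. In the 739 barcodes left out of the LPS library, of which 7 had a UMI of Cd79a, Ltb had 6 UMIs, Tnf 5 and Tnfrsf1a 5. The minimum of 800 genes removed more barcodes with B cell RNA from the CpG ODN library than from the LPS library, and the B cell values above are those of cells with at least 800 genes.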

How the results depend on the processing

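Of the recomputed ratios of 62 comparisons, 496 moved by less than their counting error, 25 moved by more and 3 changed direction, the last counted only where the interval of the reported ratio left out 1. Ltb in B cells was at 1.08 (CpG ODN over LPS) when classes were drawn by signature genes, against 0.718, and Cd40 in B cells of the LPS library was then at 4.68 CPM, against 67.6. Ltb in GC-like B over B cells, 0.823, was 1.44 with cluster 14 only, 0.448 with cluster 18 only (both chosen after seeing the data) and 1.11 as a mean over cells. Ltb in T cells was 0.414 with at least 1200 genes, against 0.888. As a mean over cells, Tnf in gland or simple epithelial cells was 0.622 between the libraries, against 1.24, and 38.0 and 30.6 times the keratinocyte level after CpG ODN and LPS, against 58.6 and 19.1. It was 38.9 times after CpG ODN at resolution 2.0. Tnf in myeloid cells was 0.262 without the cell with the most UMIs and 0.568 with signature genes, against 0.184. The causes were not tested, other than that the single clusters hold fewer cells.

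Thinning to 1500 UMIs lowered the shares given here. Ltb went to 37.0% and 48.6% in B, 41.7% and 39.5% in T and 37.1% in GC-like B cells, and Fas to 15.7% in GC-like B cells. Tnfrsf1a went to 7.17% and 8.43% in keratinocytes, 15% and 18.4% in fibroblasts and 26.6% and 26.5% in endothelial cells, Ltbr to 3.17% and 2.84% in keratinocytes, and Tnf to 3.15% and 5.25% in gland or simple epithelial cells. Of other superfamily genes past the fold, 2 in keratinocytes and 1 in GC-like B cells became 0 and 0 with at least 50 UMIs. Of pathway genes, 5 in keratinocytes became 2 with at least 50 UMIs and 8 at a fold of 1.5, and 8 in GC-like B cells became 5 with at least 50 UMIs. No paired analysis was possible because the labels give 1 library for each treatment. Signature genes could be used for B, T, myeloid, keratinocyte and fibroblast classes only.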
